A study of Mus musculus with 64 samples.

Results

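The genes described here are 53 mouse genes of the extracellular matrix, taken by symbol from a table of 36332 gene IDs, and all 53 were found in it. They comprise 6 fibrillar collagens, 6 microfibrillar, network or fibril-associated collagens, 11 basement membrane genes, 11 elastic fibre and matrix glycoprotein genes, 4 small leucine-rich proteoglycans, 12 genes of matrix-modifying enzymes, a collagen chaperone and protease inhibitors, and 3 growth factor or CCN genes. They were measured by RNA sequencing in 64 libraries and 12 groups, from Myc knockout (KO) and wild-type (WT) mice at 5 and 20 months of age and from their omental adipose tissue, their liver and their skeletal muscle. Groups held 6 libraries at 5 months and 5 at 20 months, except that the 5-month KO muscle group held 4. KO mice came from a cross of B6.129 lines that joins the allele Gt(ROSA)26Sortm1(cre/ERT2)Tyj, a Cre recombinase expressed broadly and activated by tamoxifen, with Myctm2Fwa, a Myc allele that Cre can excise. The WT strain is labelled C57/B6 and is not stated to carry Cre. Mice of both genotypes and both ages are labelled as given 5 daily injections of tamoxifen (75 mg/kg, in corn oil) after weaning, once they weighed 15 g or more. Effects of the Myc deletion, of Cre and of strain background therefore cannot be told apart. Libraries are named by their codes, with W or K for the genotype, then F, L or S for adipose tissue, liver or muscle. Codes of 20-month mice read 18, but their labels give 20 months, the age used here.

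Fibrillar collagens form the tensile fibres of connective tissue, and type IV collagen, laminins, nidogens and perlecan build the thin basement membrane sheets around adipocytes, muscle fibres and vessels. Procollagen chains are hydroxylated and folded in the endoplasmic reticulum, secreted, trimmed and then crosslinked by lysyl oxidases, and metalloproteinases with their inhibitors set the rate of turnover. In adult tissue most of these genes are expressed mainly by fibroblasts and other mesenchymal cells, basement membrane genes also by endothelial cells, adipocytes and muscle cells.

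Since Myc is a DNA-binding protein that recognises the E-box CACGTG, the windows before the members' start sites were searched for it and for the CCAAT box, a common promoter element. RefSeq promoter windows (assembly GRCm38.p6, 250 bases before to 50 after each annotated start) were matched for 35 of the 53 genes, with 40 windows in all. On either strand, CACGTG occurred in 2 of the 40 windows (5%), against 7.15% of 32851 windows of all genes, and both belonged to Fbln1. CCAAT occurred in 12 of the 40 (30%), against 37.4% of all windows. The upstream sequences of 2 genes are shown: the fibrillar collagen gene Col1a2, which fell with age in muscle of both genotypes, and Fbln1, the gene with the E-box, which fell with age in WT adipose tissue and in WT muscle. Each is the 250 bases before the annotated start, on the plus strand. For Col1a2 (chr6:4505368-4505617) capitals mark a CCAAT box that begins 109 bases before the start, and for Fbln1 (chr15:85205699-85205948) they mark the E-box, which begins 81 bases before the start.
Col1a2: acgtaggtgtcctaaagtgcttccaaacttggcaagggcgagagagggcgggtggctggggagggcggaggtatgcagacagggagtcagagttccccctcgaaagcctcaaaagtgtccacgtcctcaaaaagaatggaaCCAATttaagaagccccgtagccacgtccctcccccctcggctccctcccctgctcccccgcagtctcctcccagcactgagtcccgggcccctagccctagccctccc
Fbln1: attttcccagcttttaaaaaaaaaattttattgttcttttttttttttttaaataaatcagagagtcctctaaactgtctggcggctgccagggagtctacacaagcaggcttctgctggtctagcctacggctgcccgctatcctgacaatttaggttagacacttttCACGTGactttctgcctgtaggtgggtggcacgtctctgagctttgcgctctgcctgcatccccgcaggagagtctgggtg
The other annotated start of Fbln1 lies downstream, and its window (chr15:85205758-85206007 on the plus strand) holds the same E-box 140 bases before that start. A match describes the letters in these windows and says nothing about binding. In 4 pairs, members were neighbours with no other protein-coding gene between them: Col3a1 with Col5a2 on chromosome 1, Col6a2 with Col6a1 and Dcn with Lum on chromosome 10, and Col4a1 with Col4a2 on chromosome 8. Col4a1 (minus strand, start at 11312826) and Col4a2 (plus strand, start at 11312805) run in opposite directions from starts 21 bases apart. By these positions the transcripts overlap at their starts, with no gap between them.

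Depth was 15.4 to 28.5 M reads on genes per library (M, mega). Levels are given as the deposited CPM, counts scaled by library, and tests were made on log2(CPM + 1) with limma, in which a gene is called changed at a Benjamini-Hochberg adjusted p under 0.05 over all genes tested in the tissue. SE is the standard error of a log2 fold change. Markers fitted the tissue labels: the summed level of 6 adipocyte genes was 3437 to 11687 CPM in adipose libraries, that of 6 hepatocyte genes 101831 to 209589 CPM in liver, and that of 6 muscle fibre genes 124552 to 176031 CPM in muscle. Myc itself was lower in KO than in WT at 5 months in adipose tissue (log2 fold change -1.52, adjusted p = 0.017) and liver (-2.38, 0.00093). In muscle it was not called at 5 months (-1.13), and no tissue had it called at 20 months. Of the 64 libraries, 12 held Xist, all of them from 5-month mice, so age is partly tied to sex. In addition, 4 young adipose libraries (3 KO and 1 WT) held 919 to 6979 CPM of 8 epididymis genes. Young WT muscle library W5S5299, with the same number as the WT adipose one, held 127 CPM of them. Older WT muscle library W18S42 held 2539 CPM of hepatocyte genes. Nothing in the labels beyond the codes says that replicates are separate animals, so p-values measure the spread between these libraries.

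Most members were expressed at the highest level in adipose tissue. Over all libraries of a tissue, the median level was highest in adipose tissue for 47 of the 53 genes, in muscle for 4 (Ccn1, Ccn2, Fmod and P4ha2) and in liver for 2 (Col18a1 and Fn1). Deposited CPM summed to 0.529 to 0.753 M per library in adipose tissue, 1.08 to 1.32 M in muscle and 1.18 to 1.64 M in liver. The order of tissues with close levels depends on this scaling, as for Ccn2 (medians 47.2 CPM in muscle, 38.7 in adipose tissue). The same may hold for Ccn1 (116 and 74.6) and Fmod (110 and 67.7). For 38 genes the lowest adipose library lay above the highest liver library, and for 30 the same held for muscle over liver. These counts were not made over all genes, so whether they are particular to the members cannot be said. Sparc, a collagen-binding protein of the basement membrane, ranged from 688 to 4979 CPM in adipose tissue, from 141 to 476 in muscle and from 38.8 to 83.5 in liver. Col18a1, a basement membrane collagen made by hepatocytes, was highest in liver and lowest in muscle, with 905 to 1621 CPM in liver, 55.6 to 255 in adipose tissue and 7.11 to 26.9 in muscle. Fn1, which encodes fibronectin, a plasma protein from liver and a matrix protein elsewhere, ranged from 974 to 3543 CPM in liver and from 29.9 to 216 in muscle. Lox, a lysyl oxidase that crosslinks collagen and elastin, was near the detection limit in liver, with a median of 0.595 CPM, against 264 in adipose tissue and 51.9 in muscle. Col8a1 did not reach the level needed for testing in liver (median 0.256 CPM), so 52 members were tested there. Per kilobase of exon, the leading member in young WT mice was Dcn in adipose tissue (982 CPM per kb) and in muscle (254), and Fn1 in liver (226). Dcn encodes decorin, a proteoglycan that coats collagen fibrils.

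In WT skeletal muscle, 20 of the 53 genes were lower at 20 than at 5 months and none was higher. The 20 are 37.7% of the members, beside 18.6% of all 13237 genes tested that were called (7.68% lower, 10.9% higher). The median log2 fold change was -0.52 over the members and 0.03 over all genes tested, and 49 of the 53 values were negative. In bulk tissue, fewer cells of a type and less RNA per cell cannot be told apart.

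Of the fibrillar collagens, 3 of 6 fell in WT muscle: Col1a1 and Col1a2, which encode both chains of type I collagen, and Col5a2, a chain of type V collagen that is built into the same fibrils. Col1a1 (chr11:94936224-94953042) stood at 59.3 CPM in the lowest, 129 in the median and 301 in the highest of the 6 young WT libraries, and in rising order at 30.5, 35.1, 44.1, 44.7 and 60.4 in the older ones. The groups overlapped by 1 older library, W18S41, just above the lowest young one. The fold change was -1.61 (SE 0.40, adjusted p = 0.0117). Col1a2 (chr6:4505618-4541543) stood at 86 (lowest), 179 (median) and 360.1 CPM (highest) in young and at 48.4, 62.6, 64.6, 72.4 and 82.9 in older WT muscle, so that every older library was below every young one (-1.43, SE 0.35, adjusted p = 0.0115). Col3a1, the type III chain, was not called (-0.97, adjusted p = 0.108), nor was Col6a1 of the microfibrillar collagens (-0.37, 0.367). Of those collagens 1 of 6 fell, Col12a1, a fibril-associated collagen (-1.37, SE 0.37, adjusted p = 0.0178).

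KO muscle had 9 members lower at 20 months and none higher, 17% of the members beside 5.57% of all genes (1.96% lower, 3.6% higher). The median over members was -0.58, against -0.02 over all genes. Both type I chains were among the 9. Col1a1 read 80.6, 127, 209 and 219 CPM in young KO muscle and 16.7, 53.4, 56.3, 63.1 and 93.3 in older KO muscle, with 1 older library above the lowest young one (-1.55, SE 0.44, adjusted p = 0.0451). Col1a2 read 139, 206, 286 and 289 CPM in young and 22.8, 75.4, 75.9, 86.1 and 112 in older KO muscle, without overlap (-1.72, SE 0.39, adjusted p = 0.0176). The 9 genes called in KO muscle were all among the 20 called in WT muscle, which is 100% of the KO list and 45% of the WT list. These ageing comparisons share no library, but they share the fit's estimate of each gene's spread. The overlap over all genes was not counted.

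Basement membrane genes moved less uniformly. In WT muscle 4 of 11 fell (Col4a1, Col4a2, Lama2 and Nid1) and in KO muscle 2 of 11 (Col4a1 and Col4a2). Col4a1 and Col4a2 encode the chains of the main type IV collagen network. Col4a1 read 246 (lowest), 323 (median) and 451 CPM (highest) in young WT muscle and 104, 129, 132, 217 and 399.8 in older WT muscle. The highest older value, from library W18S41, lay among the young ones, and the other 4 were below all of them (-0.88, SE 0.26, adjusted p = 0.0264). In KO muscle Col4a1 read 262, 388, 412 and 483 CPM at 5 months and 156, 158, 177, 182 and 191 at 20 months, without overlap (-1.13, SE 0.29, adjusted p = 0.0295). Its divergent neighbour Col4a2 had -0.91 in WT (adjusted p = 0.0291) and -1.13 in KO (0.0361). Lama2, the laminin chain of the muscle fibre's basement membrane, fell in WT (-0.59, adjusted p = 0.0248) and read -0.09 in KO (0.795). Perlecan (Hspg2) was called in neither genotype (-0.28 and -0.14).

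Elastic fibre and glycoprotein genes had the most calls, 6 of 11 in WT muscle and 3 of 11 in KO muscle, and all 11 values were negative in each genotype. Eln, the elastin gene (chr5:134702595-134747368), read 33.8 (lowest), 64.5 (median) and 88 CPM (highest) in young WT muscle and 17.7, 18.7, 22, 27 and 37.5 in older WT muscle. In KO muscle it read 62.1, 73.3, 74.8 and 104 CPM at 5 months and 25.6, 27.8, 31.1, 34.3 and 34.8 at 20 months. The ages overlapped by 1 library in WT (-1.34, SE 0.21, adjusted p = 0.00106) and not at all in KO (-1.31, SE 0.23, adjusted p = 0.00576). Sparc (chr11:55394159-55420080) read 253 (lowest), 318 (median) and 438 CPM (highest) in young WT muscle and 158, 169.8, 187, 188 and 266 in older WT muscle (-0.78, SE 0.16, adjusted p = 0.00529). In KO muscle it went from 307, 389, 447 and 476 CPM to 141, 189, 196, 198 and 224, with a gap between the ages (-1.09, SE 0.18, adjusted p = 0.00372). Fn1 (chr1:71585473-71653280) read 56 (lowest), 134 (median) and 213 CPM (highest) in young WT muscle and 29.9, 32.8, 42.4, 42.7 and 52.5 in older WT muscle, again without overlap (-1.63, SE 0.32, adjusted p = 0.00442). In KO muscle Fn1 was not called (-1.0, adjusted p = 0.0947): 3 older libraries, at 94.8, 95.7 and 97.5 CPM, lay above the lowest young one, at 86.1. The other called genes were Fbln1 (-1.23) and Postn (-1.24), a fibulin and periostin, in WT, and Fbln2, another fibulin, in WT (-0.63) and KO (-0.59).

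Among proteoglycans, matrix-modifying and growth factor genes the calls were fewer. Of the 4 small leucine-rich proteoglycans, Bgn (biglycan) fell in WT (-0.70, adjusted p = 0.0283), and Dcn had -0.36 in WT (0.245) and -0.33 in KO (0.391). Of the 12 matrix-modifying genes, 4 fell in WT (Lox, Mmp14, Timp3 and Plod1) and 1 in KO (Plod1), and all 12 values were negative in each genotype. Lox read 23.4 (lowest), 83.3 (median) and 94.6 CPM (highest) in young WT muscle and 11.9, 12.7, 14.5, 33.6 and 41.4 in older WT muscle. Young library W5S5277 lay far below the other young ones and among the older, and the fold change was -1.72 (SE 0.39, adjusted p = 0.00765). In KO muscle Lox was not called (-1.03, adjusted p = 0.143). Plod1, a lysyl hydroxylase, had small but even changes, from 44.4 to 50.3 CPM in young and 29.2 to 35.3 in older KO muscle (-0.58, SE 0.11, adjusted p = 0.00846; WT -0.36, 0.0191). Timp3, a matrix-bound metalloproteinase inhibitor, fell in WT (-0.52, adjusted p = 0.0248) and was not called in KO (-0.53, 0.0678). Serpinh1, the collagen chaperone HSP47, was called in neither genotype (-0.29 and -0.70), nor was the gelatinase gene Mmp2 (-0.59 and -0.64).

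Ccn2, a matricellular gene induced by TGF-beta, read 28.1 (lowest), 68.7 (median) and 160.4 CPM (highest) in young WT muscle and 14.7, 15.3, 25, 31.9 and 39 in older WT muscle (-1.56, SE 0.39, adjusted p = 0.0123). In KO muscle it read 52.6, 83.7, 109 and 134 CPM at 5 months and 15.1, 20.8, 23.6, 47.1 and 47.3 at 20 months (-1.65, SE 0.43, adjusted p = 0.0326). The ages did not overlap in KO, and in WT they overlapped at the low end of the young libraries. Tgfb1, which encodes the growth factor itself, was not called (-0.44 in WT, adjusted p = 0.0588; -0.37 in KO, 0.191).

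**Figure D1:**
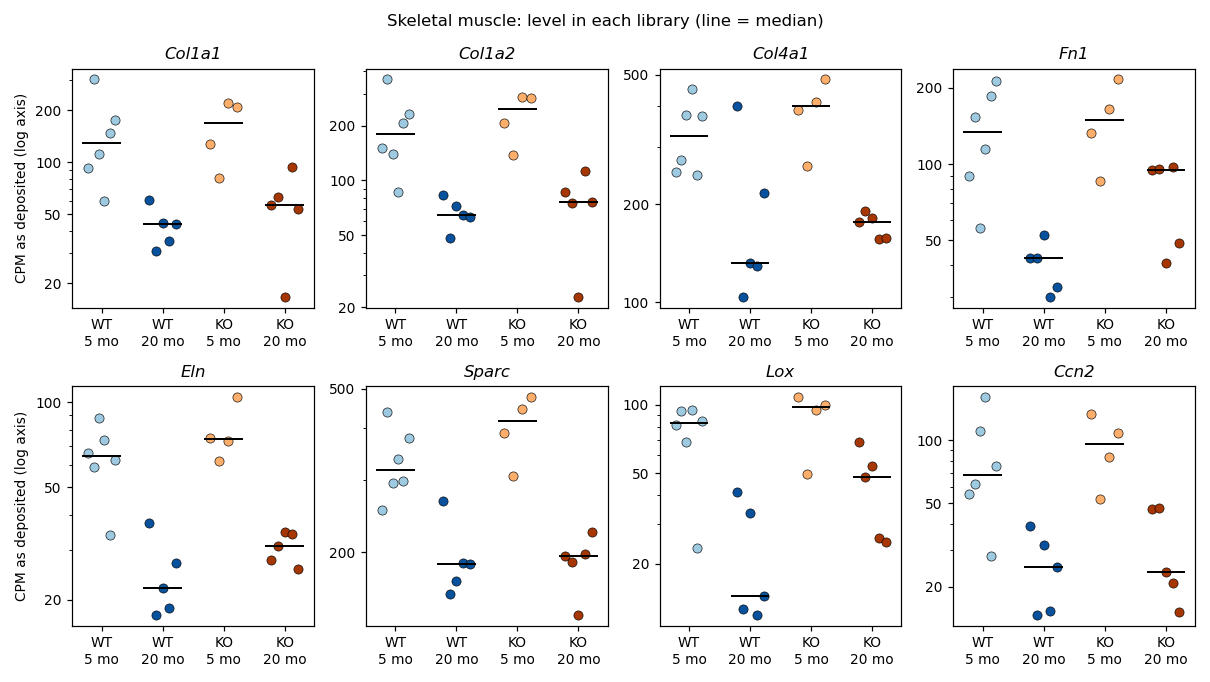
Levels of 8 matrix genes in each skeletal muscle library (CPM, log axis) by genotype and age. Each point is a library and each line a group median; Col1a2, Sparc, Eln and Ccn2 of older KO muscle lie below all young KO libraries, and older WT library W18S41 is the highest older WT value for Col4a1 (399.8 CPM) and Sparc (266 CPM).

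Some genes of other matrix lists fell in muscle too. Their counts stand beside 18.6% of all genes called in WT muscle (7.68% lower, 10.9% higher). Of 28 other collagen genes 19 were tested in muscle, and 6 fell and none rose in WT, with Col16a1 showing the largest fall (-1.22, adjusted p = 0.00873). Of 34 other matrix structural genes tested, 8 fell in WT, and of 27 other matrix-modifying genes 7 fell, led by Adamts2, which trims procollagen (-1.44, SE 0.25, adjusted p = 0.00194). KO muscle had 5, 3 and 4 falls in these lists and no rise, beside 5.57% of all genes called (1.96% lower, 3.6% higher). Of 19 genes of the TGF-beta pathway, 2 fell in WT and 1 rose in KO, beside the same shares.

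Sums of some cell type markers were lower at 20 months in muscle, most with overlapping ranges and few markers called. The summed level of 8 fibroblast and progenitor markers ranged from 988 to 2096 CPM in young and 669 to 1267 in older WT muscle, and from 1718 to 2001 and 759.8 to 1359.5 in KO muscle. Of these markers 2 fell in WT and 1 in KO, beside 18.6% and 5.57% of all genes called. The endothelial sum had medians of 596 CPM in young and 484 in older WT muscle, and 692 and 635 in KO. Medians of the mural and smooth muscle sum were 684 and 646 CPM in WT, and 773 and 661 in KO. The sum of 6 tendon markers ranged from 179.5 to 477 CPM in young and 72.1 to 365 in older WT muscle, and from 117 to 481 and 76.5 to 213 in KO, with 1 and 0 called. The sum of 8 immediate early genes, which respond quickly to stimulation, ranged from 231 to 2919 CPM in young and 132 to 1405 in older WT muscle, and from 254 to 1605 and 128 to 684 in KO. Older WT library W18S41, the highest older WT library for Col4a1, Eln, Sparc and Lox, also had the highest tendon and immediate early sums of its group. No marker of these lists was at 0 throughout a muscle group, and their part in the falls was not tested. Without the libraries that held Xist, 13 members were called in WT muscle, 12 of them among the 20, and 2 in KO muscle (Eln and Plod1). Xist was held by 2 of the 6 young WT and 2 of the 4 young KO muscle libraries, so few young libraries were left. Leaving out older WT library W18S42, the one with hepatocyte transcripts, gave 9 calls, the fewest of the leave-one-out fits, and leaving out W5S5299 gave 18. 9 genes were called in all 11 such fits of WT muscle: Col1a1, Col1a2, Col5a2, Fn1, Eln, Fbln2, Sparc, Lox and Ccn2.

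In adipose tissue the direction with age was the opposite for most members. In KO adipose tissue 17 of 53 genes were higher at 20 than at 5 months and none was lower, 32.1% of the members beside 14.2% of all 14286 genes (10.5% higher, 3.75% lower). The median was 0.69 over members and 0.06 over all genes. In WT adipose tissue 2 rose and 1 fell, beside 10.8% of all genes called (7.41% higher, 3.36% lower), with a median of 0.24 over members. The difference between the genotypes' ageing changes was called for no member by limma or by edgeR, with 4 members at an unadjusted p under 0.05 by either tool, and for 0% of all genes. In muscle and liver it was called for no member by either tool, with 0 at an unadjusted p under 0.05, and for 0% of all genes.

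Basement membrane genes had the most calls in KO adipose tissue, 6 of 11, and all 11 values were positive. Hspg2 (chr4:137468751-137570630), the perlecan gene, read 131 (lowest), 328 (median) and 457 CPM (highest) in young KO libraries and 571, 667, 726, 969 and 1062 in older KO libraries. In WT it read 146, 378 and 672 CPM at 5 months and 844, 915, 938, 945 and 1128 at 20 months. Every older library was above every young one in both genotypes, with fold changes of 1.42 (SE 0.35, adjusted p = 0.0137) in KO and 1.43 (SE 0.35, adjusted p = 0.0145) in WT. Nid1, which encodes nidogen and links laminin to type IV collagen, rose in KO (1.36, SE 0.34, adjusted p = 0.0147), where older libraries read 608, 686, 844, 907 and 928 CPM against a young range of 109 to 661. The lowest older KO library lay below the highest young one. In WT the groups did not overlap (308 to 752 CPM young, 805 to 1131 older), but the value missed the threshold (1.04, adjusted p = 0.0519). Col15a1, a collagen that anchors basement membranes to the stroma, read 15.7 (lowest), 54.1 (median) and 127 CPM (highest) in young and 81.5, 128, 202, 262 and 264 in older KO adipose tissue (1.86, SE 0.61, adjusted p = 0.0455). It was not called in WT (0.72, adjusted p = 0.441), where 1 young library reached 601 CPM. Col4a1 (0.94, adjusted p = 0.0327), Col4a2 (0.92, 0.0417) and Lama4, a laminin chain of vessels and adipocytes (0.97, 0.0467), were the other calls in KO.

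The collagens of the stroma rose in part. Col12a1 read 4.74 (lowest), 10.7 (median) and 15.2 CPM (highest) in young and 23, 23.9, 32, 34.2 and 39.3 in older KO adipose tissue, without overlap (1.57, SE 0.35, adjusted p = 0.00708). In WT it read 7.66, 12.4 and 33 CPM at 5 months and 21, 26.8, 27, 27.6 and 67.8 at 20 months (1.21, SE 0.35, adjusted p = 0.032). Col6a3, the large chain of type VI collagen that adipocytes and stroma secrete, rose in KO from 12.2 (lowest), 49.5 (median) and 114 CPM (highest) to 72.8, 121, 141, 205 and 271 (1.80, SE 0.49, adjusted p = 0.0217), with overlap at the ends, and was not called in WT (0.59, 0.433). Col5a2 was the 1 fibrillar collagen of 6 called (1.10 in KO, adjusted p = 0.0179). Col1a1 (0.37 in KO and -0.14 in WT), Col3a1 (0.51 and -0.50) and Col6a1 (0.72 and 0.10) were called in neither genotype.

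Of the 11 elastic fibre and glycoprotein genes 5 rose in KO adipose tissue, namely Thbs1, Tnc, Fbln2, Sparc and Postn. Thbs1, which encodes thrombospondin, an activator of latent TGF-beta, read 104 (lowest), 333 (median) and 1099 CPM (highest) in young and 641, 669.9, 1137, 1595 and 2778 in older KO libraries (1.92, SE 0.54, adjusted p = 0.0256). The 3 young KO libraries with epididymis transcripts were the lowest for Thbs1, and the young WT range was 247 to 1061 CPM. Fbln2 had the smallest adjusted p of the members in KO (1.14, SE 0.23, adjusted p = 0.00461), with 127 to 313 CPM in young and 279 to 437 in older libraries. Fbln1 went the other way. It read 44.2 (lowest), 72.6 (median) and 291 CPM (highest) in young and 32.4, 32.5, 32.9, 33.9 and 41.9 in older WT adipose tissue, without overlap (-1.35, SE 0.37, adjusted p = 0.0269). In KO its groups did not overlap either, at 67.6 to 211 and 40.6 to 62.6 CPM, and the value was not called (-1.03, adjusted p = 0.0658). No proteoglycan was called, and Dcn had -0.64 in KO and -0.65 in WT. Of the modifying genes Loxl2 (0.88, adjusted p = 0.0369) and Plod1 (0.57, 0.0346) rose in KO, while Lox, Serpinh1, Mmp2 and Timp3 were called in neither genotype. Ccn1, a matricellular gene close to Ccn2, rose in KO (1.34, adjusted p = 0.0441), whereas Ccn2 read -0.15 there and Tgfb1 0.69 (adjusted p = 0.0741).

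**Figure D2:**
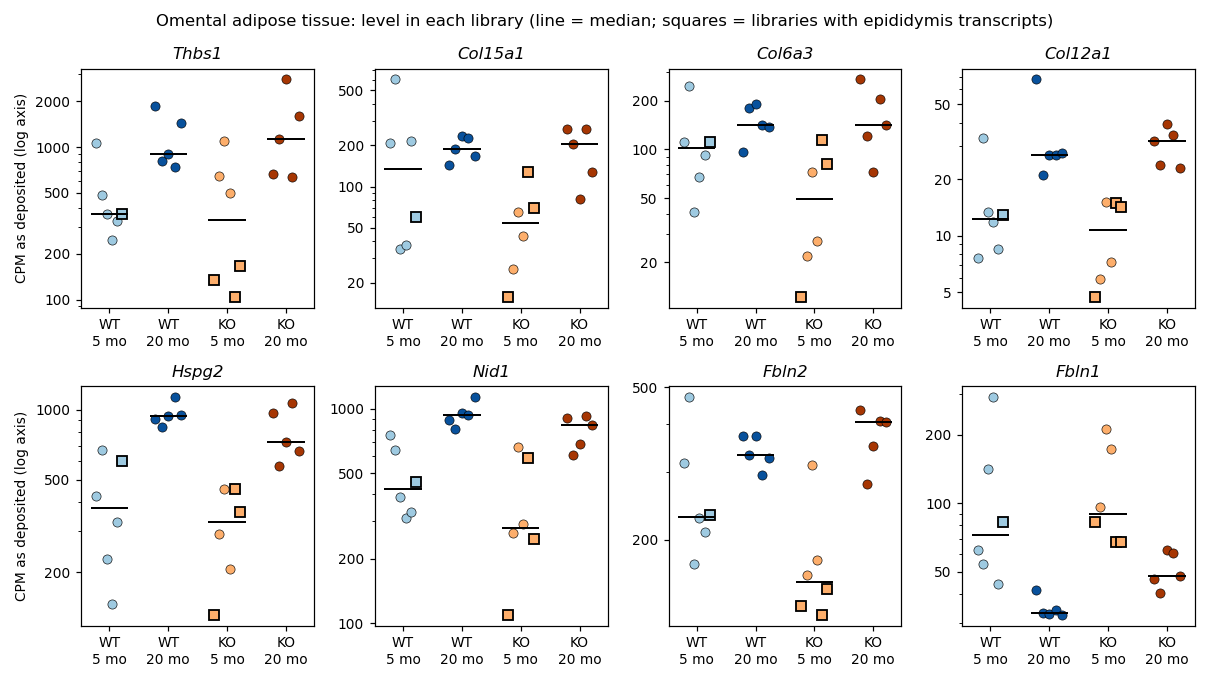
Levels of 8 matrix genes in each omental adipose library (CPM, log axis) by genotype and age, with lines at the group medians and squares for the 4 young libraries with epididymis transcripts. Older libraries lie above all young ones for Hspg2 in both genotypes and below all young ones for Fbln1.

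The counts in adipose tissue depended on the young libraries. In KO, leaving out the libraries that held Xist gave 33 calls (32 higher, 1 lower) that included all 17, and leaving out young library K5F5116 gave 25. The fit without Xist libraries kept 4 young KO libraries, 3 of them with epididymis transcripts. Its share of all genes called is not given here, so the 33 describe that fit alone. In WT, leaving out the Xist libraries gave 2 rises and 2 falls, of which only Fbln1 was among the 3. Hspg2 (adjusted p = 0.0752) and Col12a1 (0.0927) were then not called in WT, and Eln, Lox and Thbs2 were. Without the 4 libraries that held epididymis transcripts, an alternative chosen after seeing the data, 6 members rose and 1 fell in KO. Col6a3, Col12a1, Hspg2, Nid1 and Fbln2 were among the 17, and Col18a1 (higher) and Fbln1 (lower) were added. In WT the same step gave 4 rises and 1 fall. Without young KO library K5F4284, which had the most of these transcripts, 4 members were called. 4 genes were called in all 11 leave-one-out fits of KO: Col12a1, Fbln2, Hspg2 and Nid1. With edgeR on recovered reads 7 members rose and 1 fell, and over all genes that test called 997 higher and 1265 lower, against 1497 and 536 with limma. In WT edgeR gave 2 rises and 1 fall among the members, and 886 higher and 820 lower over all genes, against 1059 and 480 with limma.

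Other genes of the matrix changed with age in adipose tissue as well. Of 35 other matrix structural genes tested 6 rose and 3 fell in KO, beside 14.2% of all genes called, and 4 rose and 2 fell in WT, beside 10.8%, with the proteoglycan gene Prelp up by 1.92 and 2.04 and Spon1 down, at -2.12 and -2.11. Col16a1 rose in both genotypes (0.95 and 0.92). The cathepsin gene Ctsk led 6 rises among other matrix-modifying genes in KO (1.42), where WT had none and 1 fall. The CCN gene Ccn5 rose by 4.09 in WT and 2.73 in KO. The sum of 9 endothelial markers ranged from 264 to 1296 CPM in young and 800.5 to 1102 in older WT adipose tissue, and from 343 to 862 and 732 to 1130.3 in KO, with 2 markers called higher in KO. No marker of the fibroblast list was called in either genotype (sums of 5040.2 to 9143 and 6189 to 9028 CPM in young and older KO, 6583 to 13638 and 6079.6 to 8574 in WT). B and plasma cell markers rose, 5 of 6 in WT and 3 of 6 in KO. The part of these markers in the matrix changes was not tested.

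**Figure D3:**
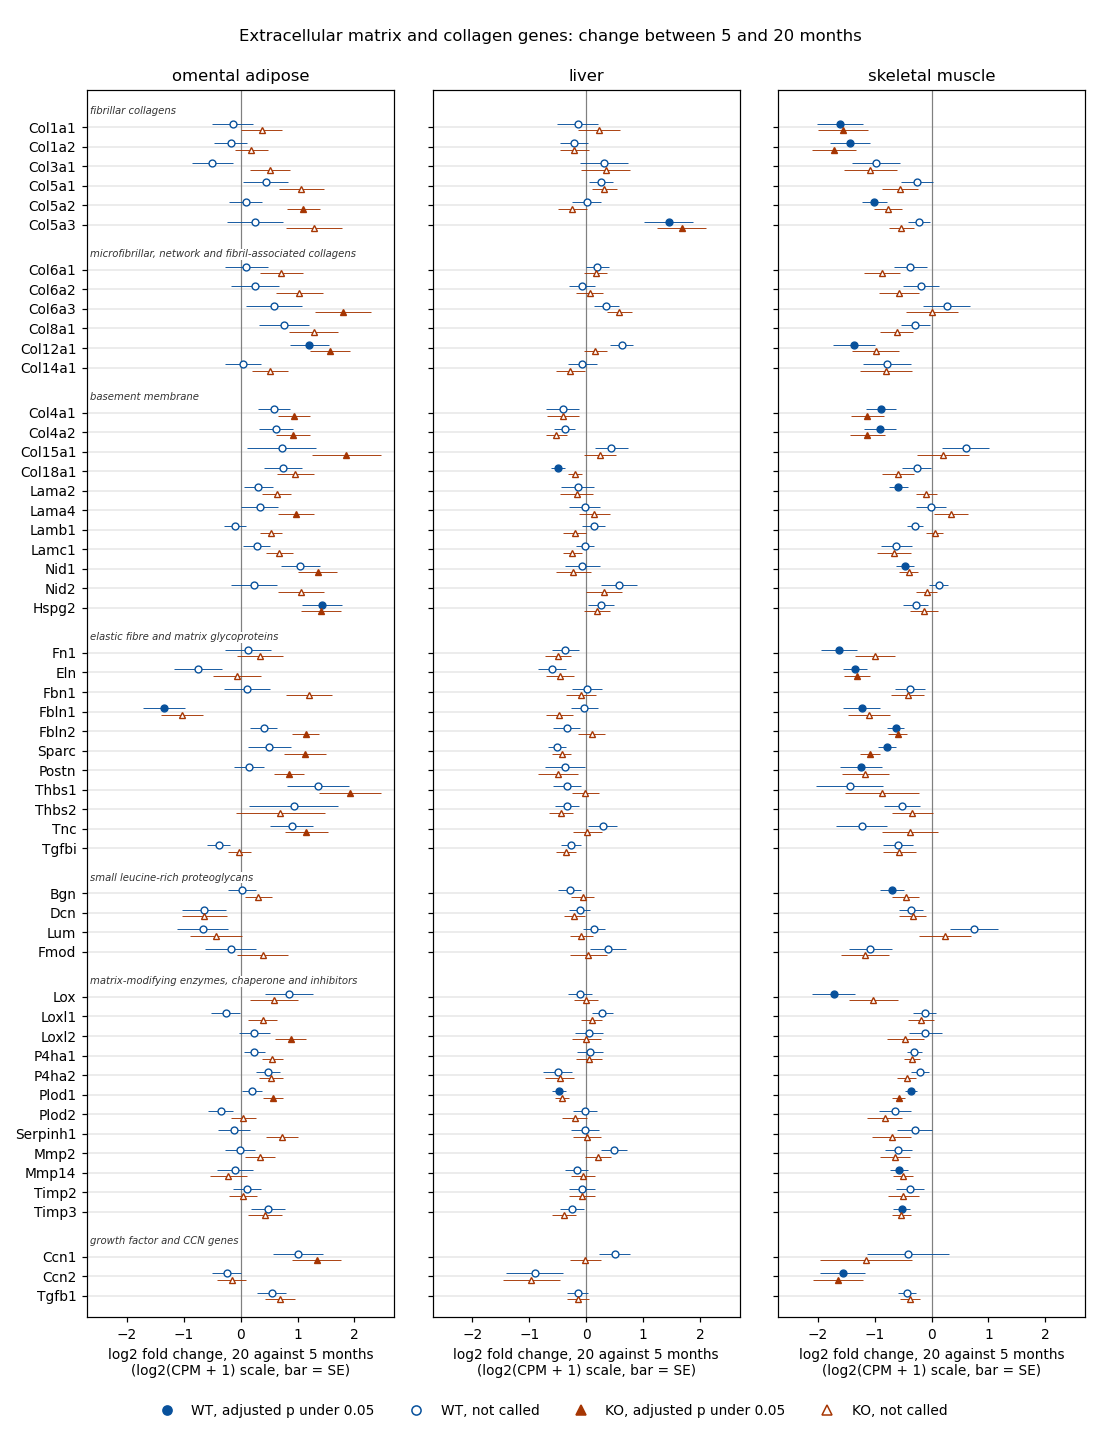
Log2 fold change from 5 to 20 months of the 53 genes by role in 3 tissues, with WT as circles and KO as triangles, bars of 1 SE, and filled symbols for adjusted p under 0.05. In muscle 20 WT and 9 KO symbols are filled, all below 0, and in KO adipose tissue 17 are filled, all above 0.

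Liver had few changes. In WT liver 1 member rose and 2 fell with age, and in KO liver 1 rose, beside 7.19% (2.83% higher, 4.36% lower) and 2.99% (1.68% higher, 1.31% lower) of all genes called. Col5a3, a type V collagen chain, rose in both genotypes. It read 6.86 (lowest), 20.2 (median) and 69.3 CPM (highest) in young and 35.6, 47.2, 53, 71.3 and 71.8 in older WT liver (1.45, SE 0.43, adjusted p = 0.0442). In KO liver it read 7.44, 17.5 and 25.2 CPM at 5 months and 33.4, 45.9, 52.2, 67.2 and 76.8 at 20 months, without overlap (1.68, SE 0.43, adjusted p = 0.0367). Col18a1 fell in WT liver, from 1216 to 1621 CPM at 5 months to 905, 958, 965, 1086 and 1167 at 20 months (-0.50, SE 0.12, adjusted p = 0.0189), and was not called in KO (-0.19, 0.416). Plod1 fell in WT (-0.48, adjusted p = 0.0233), and in KO its groups did not overlap while the value missed the threshold (-0.43, 0.0604). None of these calls held in every leave-one-out fit. Fn1, whose main source is liver, was not called in either genotype, with 974 to 2550.1 CPM in young and 1248 to 1577 in older WT liver. No other collagen rose or fell in KO liver, and in WT liver Col27a1 rose (1.55) and Col13a1 fell (-1.61).

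The WT ageing changes in adipose tissue and muscle, which share no library although some of these libraries carry the same number, were compared directly on 11330 genes that passed the filter in every tissue. The change was more positive in adipose tissue than in muscle for 19 of 52 members and more negative for none, beside 16.4% of all genes called (7.86% more positive, 8.57% more negative). The median difference was 0.71 over members and -0.06 over all genes. The 19 were 2 fibrillar collagens, Col12a1, 6 of 11 basement membrane genes, 6 of 11 elastic fibre and glycoprotein genes, 3 modifying genes and Tgfb1. The largest differences were Thbs1 (2.80, SE 0.70, adjusted p = 0.00593), Lox (2.58, SE 0.51, adjusted p = 0.000737), Col12a1 (2.57, SE 0.46, adjusted p = 0.000245), Tnc (2.13, SE 0.54, adjusted p = 0.00596) and Fn1 (1.75, SE 0.48, adjusted p = 0.00951). Lox and Fn1 fell in muscle (-1.72 and -1.63) and read 0.85 and 0.12 in adipose tissue, uncalled, whereas Col12a1 was called in both tissues with opposite signs. Adipose tissue differed from liver for 2 members, Col18a1 (1.24) and Plod1 (0.67), and liver from muscle for 1, Col12a1 (1.99), beside 4.01% (2.59% more positive, 1.42% more negative) and 3.1% (1.42% and 1.68%) of all genes. Without the libraries that held Xist, 2 of the 6 young WT libraries in each tissue, the adipose and muscle count was 8. The share of all genes called in that fit is not given here, so the 8 describe that fit alone.

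**Figure D4:**
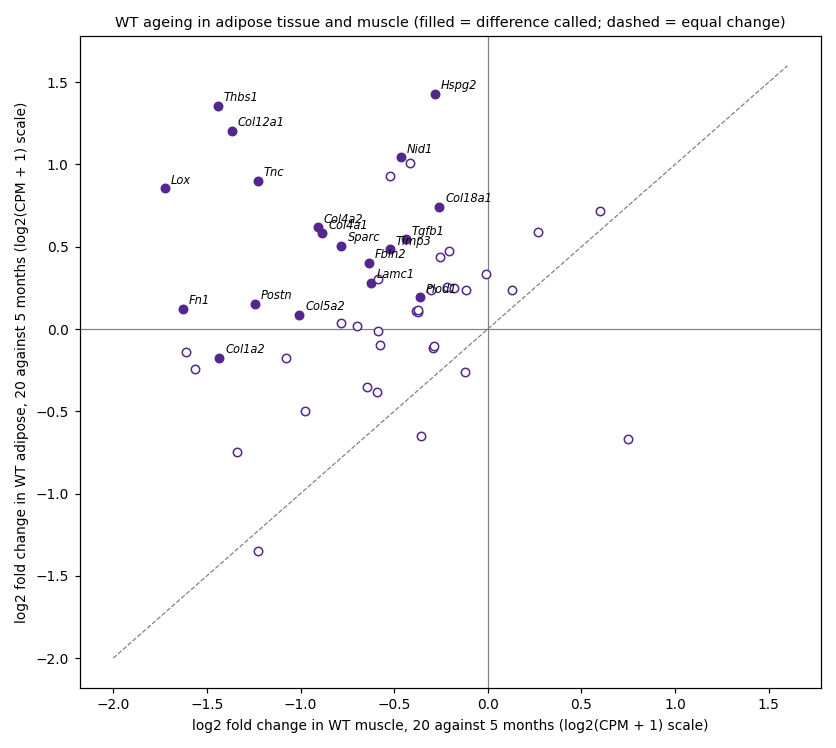
WT log2 fold change from 5 to 20 months in skeletal muscle (x axis) against omental adipose tissue (y axis), 1 point per gene, with a dashed line of equal change. Filled and named points are the 19 genes whose change differed between the tissues, and all 19 lie above the line.

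Of the 20 genes lower in WT muscle and the 17 higher in KO adipose tissue, groups without a shared library, 9 were the same: Col5a2, Col12a1, Col4a1, Col4a2, Nid1, Fbln2, Sparc, Postn and Plod1. They are 45% of the muscle list and 52.9% of the adipose list. Lists of 20 and 17 drawn from 53 genes share several by chance, and the overlap over all genes was not counted. The type I collagen chains, Eln, Fn1, Lox and Ccn2, all of them lower in older WT muscle, were not among the 9.

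No member differed between KO and WT by limma at either age in any tissue. At 5 months in adipose tissue the count was 0 by limma and 0 by edgeR, with 15 and 12 members at an unadjusted p under 0.05, beside 0.105% of all genes called. Of the 53 values 43 were negative, with a median of -0.35 against -0.04 over all genes. All 6 fibrillar collagens, all 6 microfibrillar and associated collagens and all 11 basement membrane genes had negative values (medians -0.85, -0.63 and -0.38). Serpinh1 (chr7:99345375-99353239) had the smallest adjusted p (-1.03, SE 0.26, adjusted p = 0.153), with 70.7 (lowest), 134 (median) and 185 CPM (highest) in KO and 172, 233 and 595 in WT. The groups overlapped at the ends, and the highest WT value, from library W5F5006, stood apart from the next, at 295. Col3a1 read 282, 596 and 914 CPM in KO and 496, 1067 and 2504 in WT (-0.99, adjusted p = 0.299). Col6a3 (-1.19, adjusted p = 0.345) and Col15a1 (-1.27, 0.391) had the lowest values with Col5a3 (-1.18, 0.346), and these young KO libraries are also the baseline of the rises with age in KO.

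Marker sums of other cell types differed between the young groups too. The adipocyte sum ranged from 3437 to 10472 CPM in KO (median 5144) and from 7154 to 11687 in WT (9699.8), and the fibroblast sum had medians of 6816 in KO and 9341 in WT. The macrophage sum ranged from 763 to 3138 CPM in KO (median 2026) and from 976 to 1659.9 in WT (1388). Within young KO, the 3 libraries with epididymis transcripts had the lowest sums of all of these lists. Their adipocyte sums were 3437 to 3797 CPM, against 6491 to 10472 in the other young KO libraries. Fibroblast sums were 5040 to 6137 against 7494 to 9143 CPM, and macrophage sums 763 to 1636 against 2417 to 3138 CPM. Genotype and these libraries are therefore not separated in the group values. None of the 6 adipocyte, 8 fibroblast and 6 macrophage markers was called by limma. Adipoq (-0.79), Plin1 (-1.44) and Lipe (-1.06), all adipocyte markers, had an unadjusted p under 0.05. No marker of these lists was at 0 throughout a group, and their part in the members' values was not tested.

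Which libraries were used changed this comparison. Without the 4 libraries with epididymis transcripts, no member was called, 11 had an unadjusted p under 0.05 and the median was -0.17. The fibrillar collagen median stayed at -0.84, while that of basement membrane genes was -0.11 and that of modifying genes 0.07. Without the 4 adipose libraries that held Xist, which leaves 4 young KO libraries, 3 of them with epididymis transcripts, 8 members were lower in KO and the median was -0.71. They were Col5a3, Col14a1, Lama4, Eln, Fbln2, Postn, Plod1 and Serpinh1 (Serpinh1 -1.38, adjusted p = 0.0294), beside 3.72% of all genes called in that fit. In the 3 KO libraries with epididymis transcripts 14 members were lower than in all 3 other young KO libraries, and 1 (Fmod) was higher. The same count was not made over all genes, so whether it is particular to the members cannot be said.

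**Figure D5:**
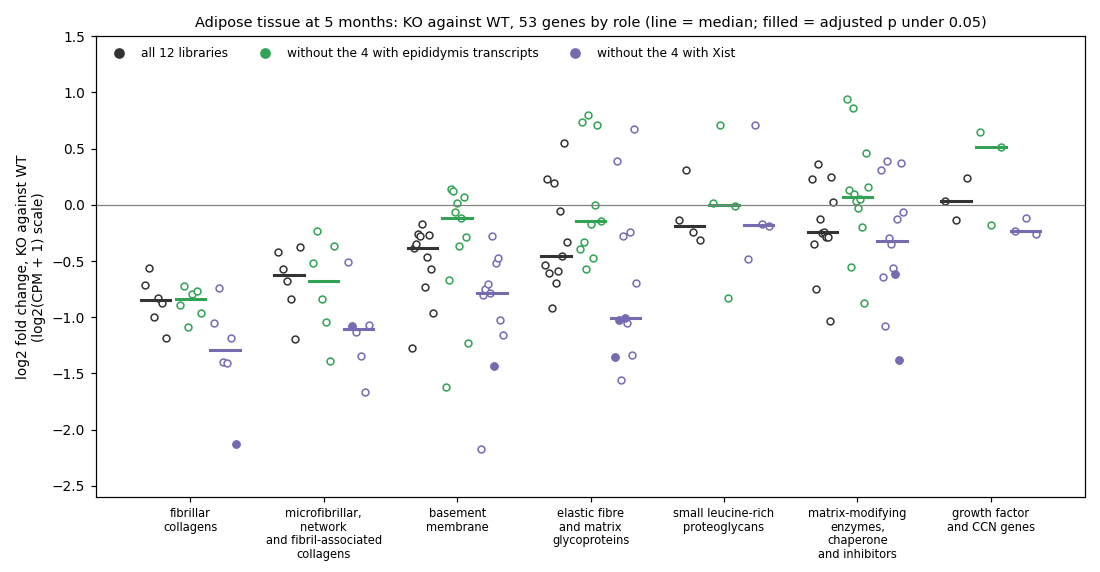
Log2 fold change of KO against WT in adipose tissue at 5 months for the 53 genes by role, with all 12 libraries, without the 4 with epididymis transcripts and without the 4 with Xist. Lines are medians and filled points have an adjusted p under 0.05; the fibrillar collagen median is -0.85, -0.84 and -1.29, and filled points appear in the last setting alone.

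The other genotype comparisons gave smaller values. At 20 months in adipose tissue the median was 0.04, with 0 members called and 0 at an unadjusted p under 0.05 by limma and by edgeR, beside 0% of all genes. In liver the count was 0 at both ages by limma and edgeR, with 2 members at an unadjusted p under 0.05 in each, beside 0.0696% of all genes at 5 months and 0.0232% at 20 months. In muscle at 5 months 43 of 53 values were positive (median 0.22, against 0.01 over all genes), with 0 calls by limma and edgeR and 1 and 0 members at an unadjusted p under 0.05, beside 0% of all genes. At 20 months in muscle 0 were called by either tool, with 8 and 7 at an unadjusted p under 0.05, beside 0.0302% of all genes. Lox (1.01, adjusted p = 0.317) and Fn1 (0.83, 0.317) were among the 8, with more in older KO than older WT muscle. Whether the KO effect at 5 months differed between tissues was tested too, and no member was called, with 13 at an unadjusted p under 0.05 for adipose tissue against liver and 11 against muscle, beside 0.124% and 0% of all genes. No gene of the lists of other collagens, other structural, other modifying or TGF-beta pathway genes was called between the genotypes in any tissue.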

How the data were processed

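Messenger RNA libraries made with a strand-specific kit, per the labels' protocols, were deposited as 1 table of 36333 gene entries (36332 IDs, 1 of them listed more than once and summed) and 64 library columns called CPM and made with CLC Genomics, per the file headers. The submitters' processing notes name the builds GRCm38.p6 and mm10. The aligner and how counting treated strand are not given in the sources used here. Column sums of this deposited signal ranged from 0.529 to 1.64 M, so it is a read signal scaled per library by the authors. All values (100%, tolerance 0.01) were whole multiples of 1 read, which gave 15.4 to 28.5 M reads per library (median 19.6 M). Symbols came from RefSeq (GRCm38.p6) for 35336 IDs.

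The tests took genes above 1 CPM in n or more libraries, n being the size of a tissue's smallest group (14286 in adipose tissue, 12924 in liver, 13237 in muscle). Values of log2(CPM + 1) were fitted by limma 3.58.1 under R 4.3.3, each tissue's 4 groups together with a mean for each, a variance trend on intensity, and p-values adjusted by Benjamini-Hochberg. A fold change on this scale understates that of low genes. Differences between tissues were fitted over all libraries. The fit was run on simulated reads with known changes for WT ageing in adipose tissue and muscle. No effect of sex or of epididymis transcripts was simulated, and the outcome is not given here. Alternatives were edgeR 4.0.16 on recovered reads, TMM rescaling, scaling by library total, a pseudocount of 0.1, no filter, a sex covariate, leaving out the 12 libraries with Xist or each library in turn, a replicate block and, chosen after seeing the data, leaving out the 4 adipose libraries with more than 10 CPM of epididymis transcripts. Named were, per comparison, up to 5 rises and 5 falls among called members, plus Col1a1, Col3a1, Col4a1, Col6a1, Fn1, Eln, Sparc, Dcn, Lox, Serpinh1, Mmp2, Timp3, Ccn2 and Tgfb1, and others where a count of few genes called for their names. The members and lists were chosen with earlier results of these data known, so counts over them are descriptions and carry no test.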

Additional observations from a re-analysis of the deposited data

Results flagged for a closer look

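In 16 of 168 groups of 4 to 6 libraries checked for the 14 genes named throughout, 1 library stood far from the rest of its group. Chance flags about 1 in 20 groups. In young WT adipose library W5F5006, Col1a1 was 1287 CPM (the others at most 553) and Serpinh1 595 CPM (at most 295), and in young KO adipose library K5F5116 Fn1 was 1397 CPM (at most 637). In older WT adipose library W18F23, Timp3 was 225 CPM (the others at least 337). Older WT muscle library W18S41 was high for Col3a1 (125 CPM, the others at most 81.8) and Sparc (266 CPM, at most 188). Older KO muscle library K18S48 was high for Dcn (759 CPM, at most 474) and Tgfb1 (14.7 CPM, at most 9.45), older WT muscle library W18S45 for Mmp2 (44.7 CPM, at most 37.9), and young WT muscle library W5S5277 was low for Lox (23.4 CPM, at least 68.6). In liver, Lox was 1.40 CPM in older WT library W18L03 and 1.86 CPM in young KO library K5L4284, Mmp2 was 11.8 CPM in older WT library W18L03, Dcn was 276 CPM in older KO library K18L06, Sparc was 38.8 CPM in older KO library K18L08 (the others at least 48.4), and Ccn2 was 7.16 CPM in young WT library W5L5005, below the rest of its group. No cause was tested for any of them.

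The WT change with age differed between tissues, by the test of the difference itself, for 2 members between adipose tissue and liver, 19 between adipose tissue and muscle, and 1 between liver and muscle.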

How the results depend on the processing

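There were 75 called values of members, differences between tissues included. For these, 136 of 545 alternative values and 291 of 1049 values with 1 library left out missed the threshold, and none changed sign. The count for KO adipose ageing (17) was 10 with TMM rescaling, 8 with edgeR, 6 without a filter, 11 with scaling by library total, 33 without the Xist libraries and 7 without the epididymis libraries. KO muscle ageing (9) gave 4 without a filter, 4 with a sex covariate and 2 without the Xist libraries; WT muscle ageing (20) gave 13 without the Xist libraries. WT adipose ageing (3) gave 1 without a filter, 5 without the epididymis libraries and 4 without the Xist libraries, of which 1 was among the 3. KO liver ageing (1) gave 0 without a filter, and WT liver ageing (3) gave 1 with a sex covariate and 0 without the Xist libraries. KO against WT at 5 months in adipose tissue (0) gave 8 without the Xist libraries, and its difference from liver and muscle (0 and 0) gave 4 and 1. Of the WT ageing differences, adipose tissue against muscle (19) gave 12 without a filter and 8 without the Xist libraries, adipose tissue against liver (2) gave 1 with library-total scaling and 1 without the Xist libraries, and liver against muscle (1) gave 2, 2 and 4 with library-total scaling, a sex covariate and without the Xist libraries. With 1 library left out, counts ranged from 4 (without K5F4284) to 25 (without K5F5116) in KO adipose ageing, 1 to 6 in WT adipose, 3 (without K5S4284) to 12 (without K5S4285) in KO muscle, 9 (without W18S42) to 25 (without W18S41) in WT muscle, 0 to 4 in KO liver, 0 to 4 in WT liver and 0 to 1 for KO against WT in young liver. The same ranges were 12 to 21, 0 to 5 and 1 to 3 for the WT ageing differences of adipose tissue from muscle, adipose tissue from liver and liver from muscle, and 0 to 1 for the young KO effect of adipose tissue against liver. Medians over members near 0 changed sign: in liver, WT ageing (-0.07) was 0.1104 with library-total scaling, 0.0239 with a sex covariate, 0.0164 without the Xist libraries and -0.1839 to 0.0328 with 1 library left out, and KO ageing (-0.08) was 0.0717 with library-total scaling and 0.0106 with a sex covariate. With library-total scaling the median of all genes also moved, from -0.01 to 0.17 in WT and from -0.02 to 0.15 in KO liver ageing. KO against WT at 20 months (0.04 in adipose tissue and in liver) ranged from -0.0242 to 0.1287 and from -0.036 to 0.116 with 1 library left out, and in young muscle (0.22) it was -0.1245 without the Xist libraries. Of the 4 young KO muscle libraries, 2 held Xist and were left out there. The causes were not tested. Compared groups within a tissue share no replicate numbers. Across tissues, 20 of 28 same-numbered pairs had correlated deviations over 0.1 (-0.24 to 0.40), against 42 of 164 other pairs, and libraries of a shared number agreed in holding Xist or not. The labels do not say what a number marks, and not every pair was over 0.1, so the number was not used in the reported fits. With the replicate block the WT ageing differences gave 3 (adipose tissue against liver), 19 (against muscle) and 1 (liver against muscle), and the differences of the young KO effect gave 0 in each. Depth bears most on liver, where Lox had a median of 0.595 CPM and Col8a1 was not tested.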
